A study of Homo sapiens with 3 samples.

Results

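Replication-dependent histone genes were taken from ribosome footprint counts of HEK293T cells given a construct for p53, either wild type (WT) or with the substitution G245S or R273H. They were chosen by symbol: every gene whose name follows the pattern H1- with a number, H2AC, H2BC, H3C or H4C with a number was a member, which gave 73 of the 63241 genes listed (10 H1, 17 H2A, 18 H2B, 13 H3 and 15 H4 genes). HEK293T was derived from human embryonic kidney and makes large T antigen of SV40, to which p53 binds, so every group holds this antigen beside its construct. Both changes fall in the part of p53 that contacts DNA, at residues that are often altered in tumours. Per the study's methods the constructs were delivered by lentivirus to make stable lines under puromycin, while some labels describe transient transfection and name the wild-type construct for the mutants, and groups were therefore taken from the sample titles. Each group had 3 culture dishes, all treated with cycloheximide for 2 min to hold ribosomes in place. The dishes of a group were barcoded and pooled before reverse transcription, so that group and pool cannot be told apart, and nothing shows that a group holds more than 1 derived line. Cells without a construct were not analysed here.

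Histones are the proteins around which DNA is wound: H2A, H2B, H3 and H4 form the nucleosome core, and H1 is the linker histone that binds where DNA enters and leaves it. Most of their genes lie in clusters, have no introns and are transcribed during S phase, when new DNA must be packaged. Their mRNAs carry no poly(A) tail. They end in a conserved stem-loop that is bound by the stem-loop binding protein SLBP, which acts in 3′ end formation, translation and decay of these mRNAs. Footprints are the mRNA pieces that a ribosome shields from nuclease, and a footprint count thus reflects mRNA abundance and ribosome load together. No matched RNA-seq was used here, and in bulk dishes a smaller share of cells in S phase and fewer footprints per cell cannot be told apart.

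The stem-loop was used as a check of the symbols. In GRCh38, 69 of the 73 members (94.5%) held a match to the histone stem-loop consensus within 150 bases after the stop codon on the sense strand, compared with 3 of 19973 other protein-coding genes (0.015%), which were H2AX, H3-4 and H3-7. The 4 members without a match were all linker histone genes, H1-7, H1-8 and H1-10 among them, that carry the symbol pattern but are known to be expressed outside S phase or in germ cells. A few of these sequences are shown because the 16-base hairpin, in capitals, has forms that set the H4 genes apart from the other classes. They are read 5′ to 3′ on the gene's own strand.
H2AC8, chr6:26217412-26217437: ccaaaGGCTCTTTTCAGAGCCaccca
H1-3, chr6:26234212-26234237: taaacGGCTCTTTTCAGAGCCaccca
H2BC11, chr6:27132316-27132341: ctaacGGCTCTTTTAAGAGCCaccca
H4C8, chr6:26285126-26285151: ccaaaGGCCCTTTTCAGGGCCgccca
H4C14, chr1:149833027-149833052: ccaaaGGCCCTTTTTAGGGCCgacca
The form shown for H2AC8 and H1-3 was carried by 40 genes, none of them H4. The form of H2BC11 was carried by 9 genes (2 H1, 1 H2A, 5 H2B and 1 H3), that of H4C8 by 10 H4 genes and that of H4C14 by 4 H4 genes. The other 6 forms occurred in 1 gene each.

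The genes of a class are near copies, and this limits what can be said of a single gene. All 14 H4 genes other than H4C7 encode the same protein, and 10 of the 13 H3 genes encode the same H3. The coding sequences are less alike than the proteins. Coding bases 4 to 33 of several H4 genes, which encode the same residues in each, show how far synonymous changes separate them, with capitals where a gene differs from H4C14.
H4C14: tccggcagaggaaagggcggaaaaggctta
H4C15: tccggcagaggaaagggcggaaaaggctta
H4C8: tcTggcCgTggTaaAggTggaaaaggTttG
H4C16: tcTggGCgaggTaaAggTggCaaGggGCtG
H4C8 and H4C16 differ from H4C14 at 8 and 11 of these bases and at 53 and 61 bases of the whole coding region. Of all 30-base words in a member's coding region, the median member had 87.2% that occur in no other annotated gene, 34 members had at least 90% and 9 members had none. The coding regions of H2AC18 and H2AC19, of H3C14 and H3C15, of H4C11 and H4C12, and of H4C14 and H4C15 are identical. Of the nonzero counts of members, 95.9% were not whole numbers, compared with 62.5% over all genes, so most member counts hold reads that were shared out among genes by an estimate. Sums over a class are for this reason given beside single genes, although reads shared with pseudogenes or other loci outside the class remain outside them.

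The total expected count was between 18.8 and 20.0 M per dish in WT, 18.7 and 21.6 M in G245S and 23.3 and 24.6 M in R273H. As a check of the labels, CDKN1A, a cell-cycle inhibitor induced by p53, was at 61.1 ± 2.27 CPM (counts scaled to a common library total; mean ± SD, n = 3 dishes here and below) in WT, 16.1 ± 0.338 in G245S and 13.9 ± 0.515 in R273H, and MDM2, the ubiquitin ligase of p53, was at 860 ± 49.3, 76.8 ± 4.2 and 76.7 ± 2.94 CPM. Both genes were lower in G245S and in R273H, with log2 fold changes of -1.92 and -2.14 for CDKN1A and -3.48 and -3.49 for MDM2 (edgeR's quasi-likelihood test with Benjamini-Hochberg adjustment, adjusted p of 4.26e-21, 1.76e-22, 8.54e-16 and 5.73e-16). Of the epithelial markers KRT8, KRT18, KRT19, EPCAM and CDH1, KRT18 was highest (110 to 116 CPM in the group means) and KRT19 had at most 1 count in any dish. Among markers of other cell types, CD3E and HBB were at 0 in every dish, PTPRC, PECAM1 and ALB had at most 3 counts, and COL1A1 reached a group mean of 32.5 CPM.

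Histone footprints took 1.77% ± 0.0197 of the counts of a WT dish, 1.80% ± 0.0474 in G245S and 1.64% ± 0.0280 in R273H. The members were unevenly used. The highest mean over the 9 dishes was 916 CPM for H4C14, 48 members had a mean of at least 100 CPM, and the 10 highest members held 37.9% of all histone CPM. At the other end, 5 members did not pass the filter on low counts and were not tested. H1-7 and H1-8, the linker histones of testis and oocyte, had 0 counts in every dish, and H2AC1 and H2BC1, a head-to-head pair known from testis, had at most 4.98 and 12 counts. The fifth, H3C4, had 1.06 to 10.9 counts, and every 30-base word of its coding region also lies in ENSG00000282988, a protein-coding gene annotated at chr6:26195595-26199293 that held 3814 to 4978 counts per dish. H2AC7, at 169 CPM, shared 98.1% of its words with the same gene, so that counts for H3C4 and H2AC7 depend on how that overlap was resolved.

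Per kilobase of coding region, the summed level in WT was 13580.5 ± 213 CPM per kb for H4, 9992 ± 128 for H2A, 9782 ± 229 for H2B, 8055 ± 185 for H3 and 3722 ± 112 for H1. H4 was thus the class with the highest level and H1 the class with the lowest in every group, and the order of the 5 classes was the same in G245S and R273H. H2A and H2B, which pair as dimers in the nucleosome, lay closest together among the 5 classes. These levels count reads from whole genes but divide by coding length only, and the H3 value leaves out what is counted for the gene that overlaps H3C4.

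Without a correction for coding length and GC content, the largest difference lay between the 2 mutants. Summed over all 73 genes, histone footprints were at 17564, 17303 and 17940 CPM in the WT dishes, 18699, 18197 and 17660 CPM in the G245S dishes and 16124, 16262 and 16814 CPM in the R273H dishes. All 3 R273H dishes lay below all dishes of the other groups, whereas WT and G245S dishes overlapped. The mean was 10.9% higher in G245S than in R273H (log2 ratio 0.15, SD of the ratio over dishes 0.0522), that of R273H differed from WT by -6.83% (log2 ratio -0.10, SD 0.0413), and that of G245S was 3.31% above WT (log2 ratio 0.05, SD 0.0488). The first and second of these exceeded the spread of dishes, and the third did not. With the 4 H1 genes that lack the stem-loop left out, the 3 percentages were 10.8%, -6.65% and 3.46%, and over the 34 members with at least 90% unique words they were 10.6%, -8.46% and 1.25%.

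**Figure D1:**
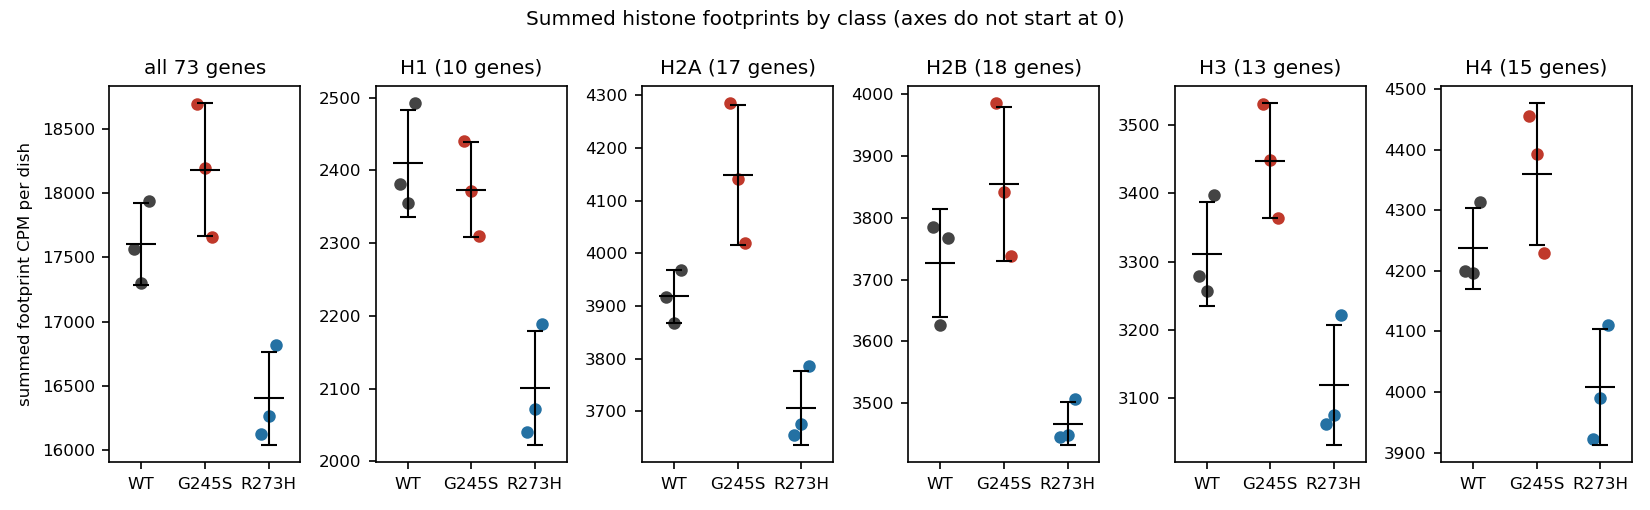
Summed footprint CPM of all 73 histone genes and of each class (y axes, which do not start at 0), with a point for each dish and the mean ± SD of each group of 3 dishes. The R273H dishes lie below the WT and G245S dishes in every panel, while WT and G245S dishes overlap in every panel but that of H2A.

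Gene by gene, 49 of the 68 tested members were higher in G245S than in R273H and 0 were lower (edgeR's quasi-likelihood test with Benjamini-Hochberg adjustment over 19820 genes, adjusted p under 0.05). This contrast called few genes elsewhere: 2.59% of all genes tested, 1.86% as higher and 0.732% as lower. Histone genes made up 13.3% of all genes called higher in it. At an unadjusted p under 0.05, 57 members were higher and 0 lower, beside 3120 of the 19820 genes tested in either direction. In 59 of the 68 members all 3 G245S dishes were above all 3 R273H dishes, which was so for 11.6% of all genes tested. DESeq2 called 47 members higher and 0 lower, beside 1.99% of all genes in either direction. The median log2 fold change of the members was 0.15, compared with 0.00 over all genes, and most members lay close to it, between 0.08 and 0.21 for the 48 members at or above 100 CPM, of which 45 were called.

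Relative to WT, most called members were lower in R273H and higher in G245S. In R273H 38 members were lower and 4 higher, beside 14.6% of all genes called lower, 14.2% called higher and 28.8% called in all. In 43 members every R273H dish was below every WT dish, as in 20.9% of all genes. In G245S 23 members were higher and 2 lower, beside 12.6%, 12.1% and 24.7% of all genes. The median log2 fold change of the members was -0.10 in R273H and 0.06 in G245S. These last 2 comparisons share the WT dishes. Of the 68 members, 60 were called in at least 1 of the 3 comparisons, and the other 8 (H1-1, H1-6, H2BC9, H2BC10, H3C8, H3C11, H4C6 and H4C13) were all of low level.

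**Figure D2:**
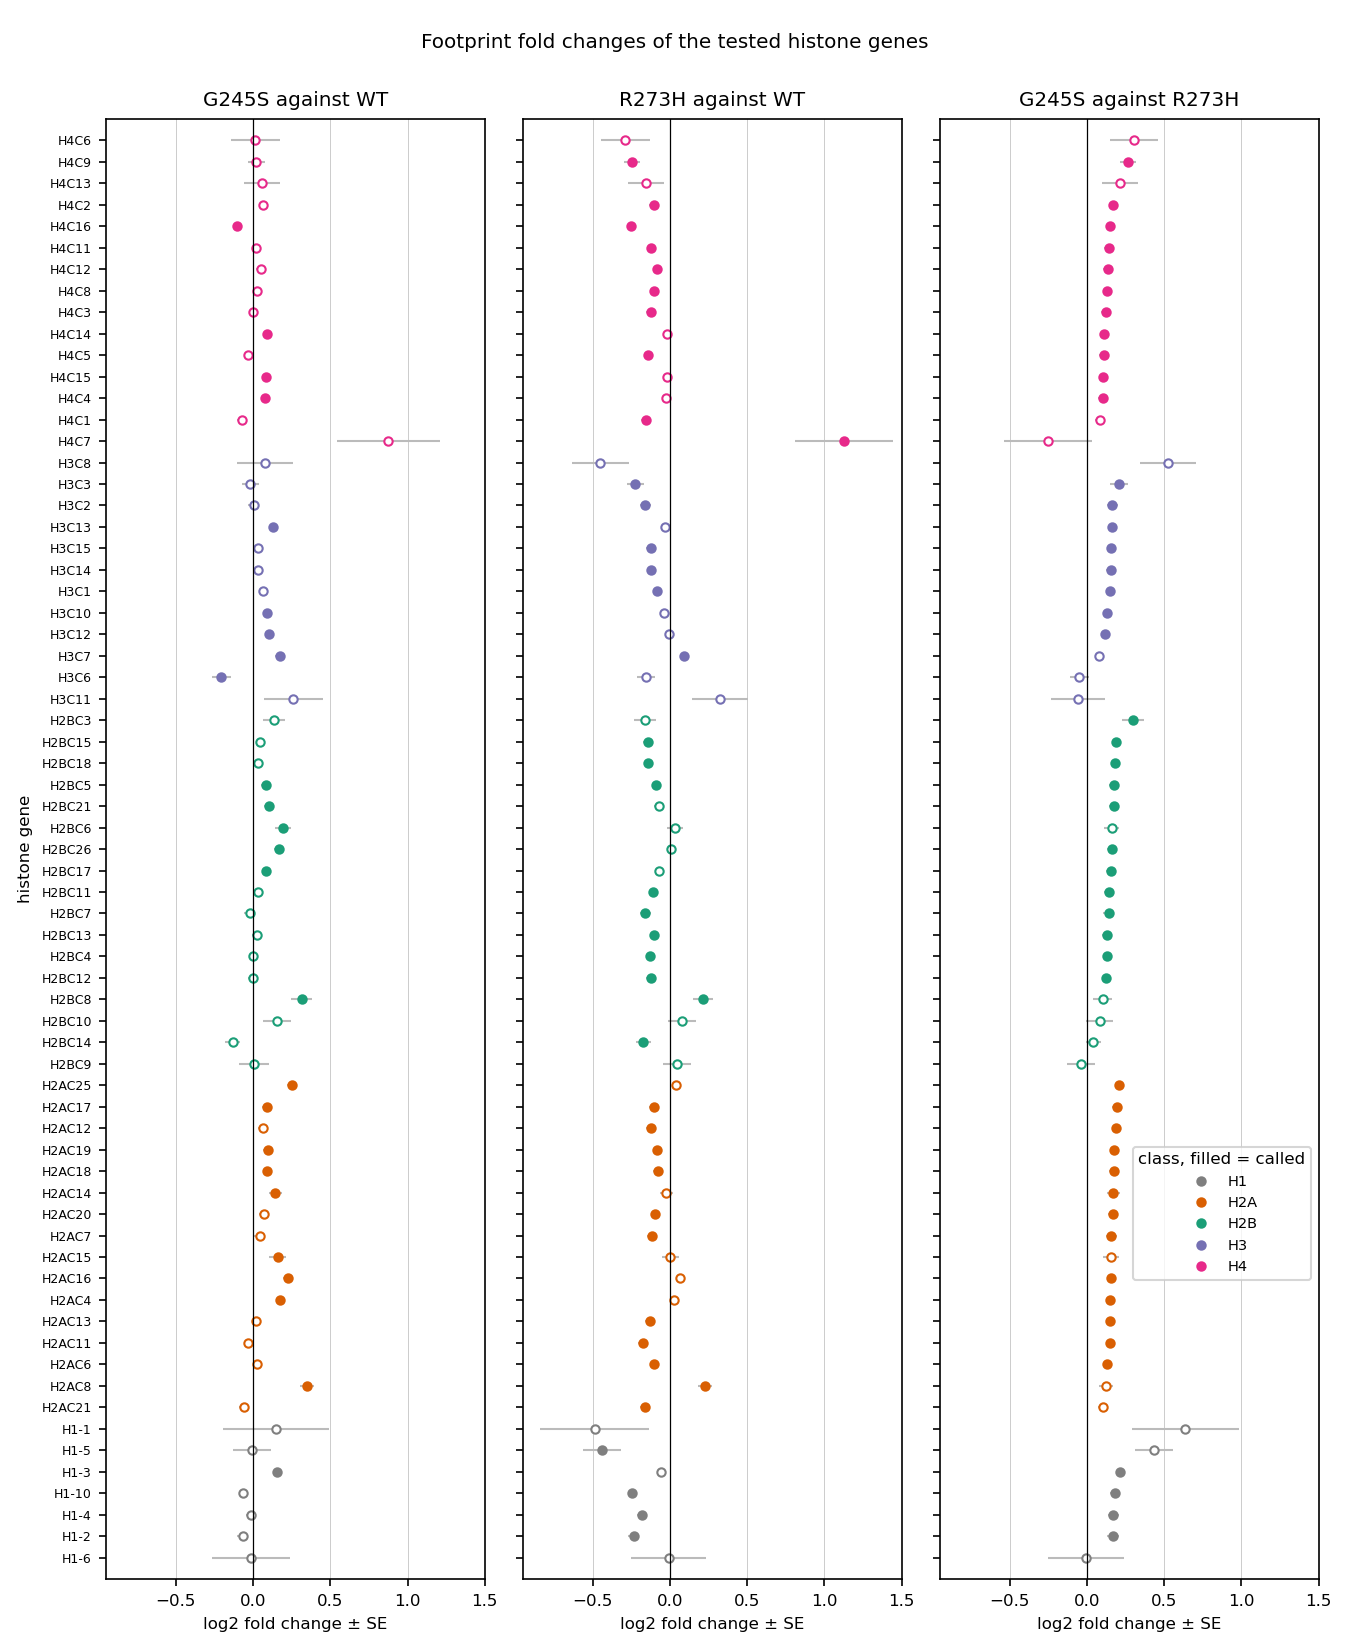
Log2 fold change ± SE (x axes) of 67 tested histone genes (y axis, ordered by class and by the contrast on the right) in the 3 contrasts, filled where the adjusted p was under 0.05. In the right panel 48 filled points lie to the right of 0 and none to the left, and their spread is narrower than in the panels against WT.

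The difference between R273H and WT changed with a correction for coding length and GC content. The members are short and GC-rich, with a median coding length of 393 bases and 60.9% GC, against 1407 bases and 52.2% for the other protein-coding genes tested. Libraries differed in both respects. Across 10883 protein-coding genes, the Spearman correlation between a gene's deviation from its mean level and its GC content was 0.26, 0.13 and -0.19 in the WT dishes, 0.35, 0.30 and -0.18 in the G245S dishes and -0.18, -0.14 and -0.43 in the R273H dishes. With coding length the same correlation was -0.18 to -0.14 in WT, -0.01 to 0.12 in G245S and 0.14 to 0.20 in R273H. These are descriptions across genes, which are not independent replicates. When a trend in both properties was removed from each library, the all-histone log2 ratio of R273H to WT turned from -0.10 to 0.01, with 16 members called higher and 5 lower. That of G245S to R273H fell from 0.15 to 0.09, with 20 members still called higher and 0 lower, all of them among the 49. That of G245S to WT rose from 0.05 to 0.10, with 39 called higher and 0 lower. With the trend removed, the largest of the 3 ratios was thus that of G245S to WT (0.0995), beside 0.0863 between the mutants. Of all genes tested, this setting called 29.9% in R273H against WT, 2.75% between the mutants and 27.2% in G245S against WT. The 21 members called in R273H against WT, of 68 tested, were thus near the share of all genes.

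Without any correction, other genes of the same kind moved less between the mutants. Among 235 other protein-coding genes with the members' range of coding length (297 to 681 bases) and GC content (49.0 to 67.7%) and a mean of at least 100 CPM, 34 (14.5%) were higher and 1 lower in G245S than in R273H, with a median log2 fold change of 0.04. Between R273H and WT 109 of these genes (46.4%) were lower and 26 higher, with a median of -0.06. In G245S against WT 50 were higher and 73 lower, with a median of -0.02, so that the histone median there had the opposite sign. Of the 48 members at this level, 45 were higher and 0 lower between the mutants (median 0.15). In R273H against WT 34 of them were lower and 1 higher (median -0.10), and in G245S against WT 18 were higher and 1 lower (median 0.04).

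**Figure D3:**
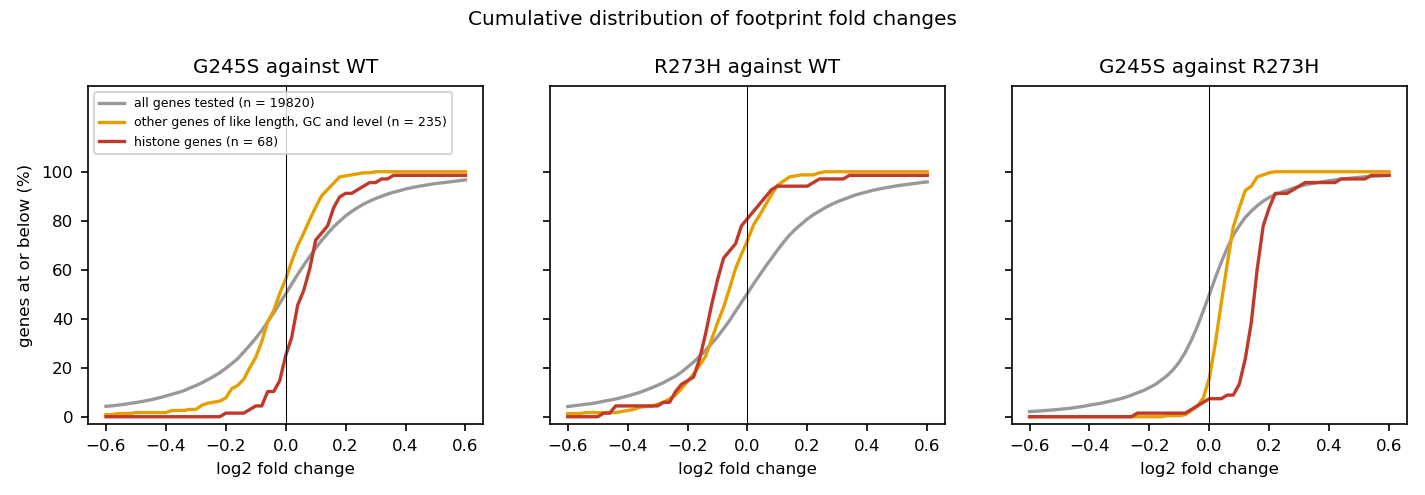
Percentage of genes at or below each log2 fold change, for all 19820 genes tested, 235 other genes and the 68 histone genes. The 235 have like coding length and GC content and a mean of at least 100 CPM, a level that 48 of the 68 histone genes reach. Histone genes lie to the right of both other curves over most of their range in G245S against R273H. In R273H against WT they lie to the left near -0.10, with 55.9% of histone genes at or below this value. This compares with 38.3% of the 235 other genes and 32.6% of all genes. At larger decreases the order to all genes turns, with 4.41% of histone genes and 12.9% of all genes at or below -0.30.

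**Figure D4:**
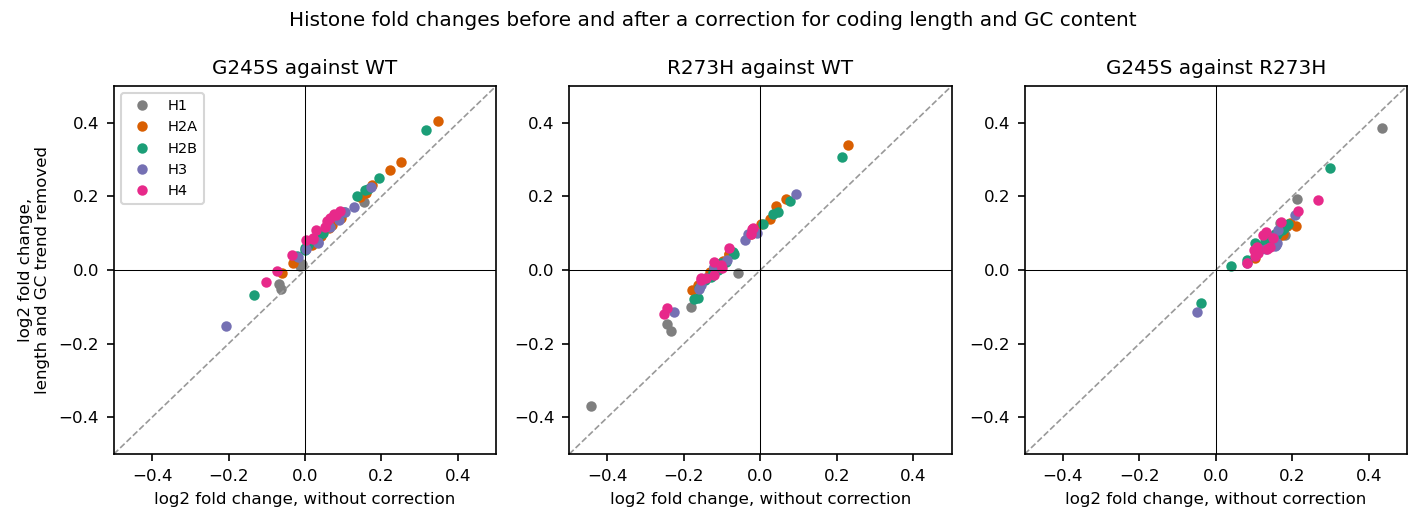
Log2 fold change of histone genes with a mean of at least 5 CPM before (x axes) and after (y axes) removal of each library's trend in coding length and GC content, with the dashed line marking no change. Of the 61 genes plotted, the number above 0 goes from 46 to 54 in G245S against WT and from 11 to 36 in R273H against WT, where the upward shift is larger. In G245S against R273H the points shift down and 59 lie above 0 before and after.

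The linker histones were lower in R273H than in both other groups. Summed H1 footprints were at 2382, 2355 and 2493 CPM in WT, 2440, 2371 and 2309 CPM in G245S and 2040, 2072 and 2189 CPM in R273H. The mean of R273H differed from WT by -12.8%, beside -5.41% to -6.98% for the 4 core classes, and a difference between classes was not tested. This sum stayed below WT when the length and GC trend was removed (log2 ratio -0.12). G245S overlapped WT and differed from it by -1.50%.

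H1-2, at chr6:26055740-26056470, is a main linker histone of dividing cells and had the highest level of its class, with 921, 907 and 984 CPM in WT, 932, 885 and 867 CPM in G245S and 774, 782 and 833 CPM in R273H. Every R273H dish was below every other dish, and the log2 fold change was -0.23 against WT (SE 0.0364, adjusted p = 0.000251). H1-4, the next in level, had 835, 824 and 887 CPM in WT, 867, 841 and 817 CPM in G245S and 719, 738 and 785 CPM in R273H. It showed the same order, with a log2 fold change of -0.18 in R273H against WT (SE 0.0340, adjusted p = 0.000718) and 0.17 in G245S against R273H (adjusted p = 0.0132). The latter call was lost without G245S dish 1, G245S dish 2 or R273H dish 2 (adjusted p of 0.0772, 0.0634 and 0.0664). It was also lost with the dish number as a block in the fit (adjusted p = 0.100). Both calls were lost when the length and GC trend was removed (adjusted p of 0.235 and 0.432).

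H1-10 is a linker histone gene outside the histone clusters, on chromosome 3, and has no stem-loop. It was at 274, 263 and 265 CPM in WT, 261, 257 and 250 CPM in G245S and 220, 223 and 234 CPM in R273H, and fell by 0.24 on the log2 scale in R273H against WT (SE 0.0285, adjusted p = 1.46e-07). All R273H dishes were below all other dishes. It was also higher in G245S than in R273H, by 0.18 on the log2 scale (adjusted p = 0.000527). The pattern between the mutants was therefore also present in an H1 gene that is not replication-dependent.

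H1-3 was the only H1 gene called in G245S against WT. It was at 226, 238 and 233 CPM in WT, 259, 260 and 257 CPM in G245S and 218, 222 and 229 CPM in R273H, and rose by 0.15 on the log2 scale in G245S against WT (SE 0.0276, adjusted p = 0.000104). All G245S dishes were above all others, while WT and R273H dishes overlapped. H1-5 was called lower in R273H against WT (log2 fold change -0.44, SE 0.124, adjusted p = 0.00774) at a mean of 5.97 ± 0.393 CPM in WT and 4.39 ± 0.308 CPM in R273H, and H1-1 and H1-6 had at most 33 counts in any dish.

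The H2A genes were the class with the most calls in G245S against WT, with 9 of 16 higher and 0 lower. Summed H2A footprints were at 3918, 3868 and 3968 CPM in WT, 4285, 4141 and 4020 CPM in G245S and 3655, 3677 and 3786 CPM in R273H, and the 3 groups did not overlap. G245S was 5.88% above WT and 11.9% above R273H, and R273H differed from WT by -5.42%. Between the mutants 13 of 16 H2A genes were higher in G245S, and the 3 not called were H2AC8, H2AC15 and H2AC21. In R273H against WT 10 were lower (H2AC6, H2AC7, H2AC11, H2AC12, H2AC13, H2AC17, H2AC18, H2AC19, H2AC20 and H2AC21) and only H2AC8 was higher.

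H2AC18 and H2AC19, the most abundant H2A genes, have the same coding sequence and were within 2 CPM of each other in the mean of every group. H2AC19 was at 479, 463 and 482 CPM in WT, 534, 502 and 485 CPM in G245S and 444, 447 and 455 CPM in R273H, in 3 groups without overlap. Its log2 fold change was 0.09 in G245S against WT (SE 0.0283, adjusted p = 0.0157), -0.08 in R273H against WT (SE 0.0282, adjusted p = 0.0292) and 0.18 between the mutants (SE 0.0281, adjusted p = 0.000737), and those of H2AC18 were 0.09, -0.08 and 0.17. H2AC6, next in level, was at 404, 399 and 403 CPM in WT, 411, 413 and 404 CPM in G245S and 374, 369 and 379 CPM in R273H. Here WT and G245S lay together and R273H apart (log2 fold change of R273H against WT -0.10, SE 0.0235, adjusted p = 0.00109).

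H2AC25, in a small histone cluster at the far end of chromosome 1 (chr1:228434777-228457873), showed another order. It was at 213, 209 and 210 CPM in WT, 257, 252 and 243 CPM in G245S and 214, 217 and 219 CPM in R273H. G245S stood apart from both other groups, with a log2 fold change of 0.25 against WT (SE 0.0274, adjusted p = 5.08e-08) and 0.21 against R273H (SE 0.0268, adjusted p = 4.35e-05). H2AC16 was similar, at 166, 164 and 165 CPM in WT, 199, 195 and 184 CPM in G245S and 172, 170 and 176 CPM in R273H (log2 fold change of G245S against WT 0.22, SE 0.0302, adjusted p = 1.97e-06).

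H2AC8 was the H2A gene with the largest change against WT in both mutants. It was at 39.5, 37.7 and 40.6 CPM in WT, 51.0, 48.2 and 50.8 CPM in G245S and 45.8, 45.8 and 46.4 CPM in R273H. Every mutant dish was above every WT dish, by 0.35 on the log2 scale in G245S (SE 0.0469, adjusted p = 1.79e-06) and by 0.23 in R273H (SE 0.0462, adjusted p = 0.000389). Its words are 97.5% unique, so this gene is little affected by shared reads. Both calls held under every alternative tried.

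H2AC8 is transcribed head to head with H2BC8, with 233 bases between their starts. H2BC8 was at 18.2, 17.8 and 18.1 CPM in WT, 22, 24.2 and 21.2 CPM in G245S and 20.2, 21.2 and 21.3 CPM in R273H. It too was higher in both mutants, by 0.32 (SE 0.0675, adjusted p = 0.000812) and 0.21 on the log2 scale (SE 0.0662, adjusted p = 0.0149). The G245S call of H2BC8 held under every alternative tried. That of R273H was lost with DESeq2 and without WT dish 2 or R273H dish 2 (adjusted p of 0.0604, 0.0547 and 0.0508). No other H2A or H2B gene was called higher in R273H than in WT.

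The genome holds 12 such divergent H2A and H2B pairs among the members, with starts 170 to 251 bases apart, and in 11 of them both genes were tested. H2AC25 and H2BC26 followed each other in G245S against WT (log2 fold changes 0.25 and 0.17, both called). So did H2AC17 and H2BC17 (0.09 and 0.08), both called but kept under only 9 and 13 of 17 alternatives. In contrast, H2AC14 and H2BC14 had values of 0.14 and -0.13 there, of which only the first was called, and H2AC15 and H2BC15 had values of 0.16 and 0.05. In R273H against WT both genes were negative in 8 of the 11 pairs and both positive in 2 (H2AC8 with H2BC8 and H2AC25 with H2BC26).

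**Figure D5:**
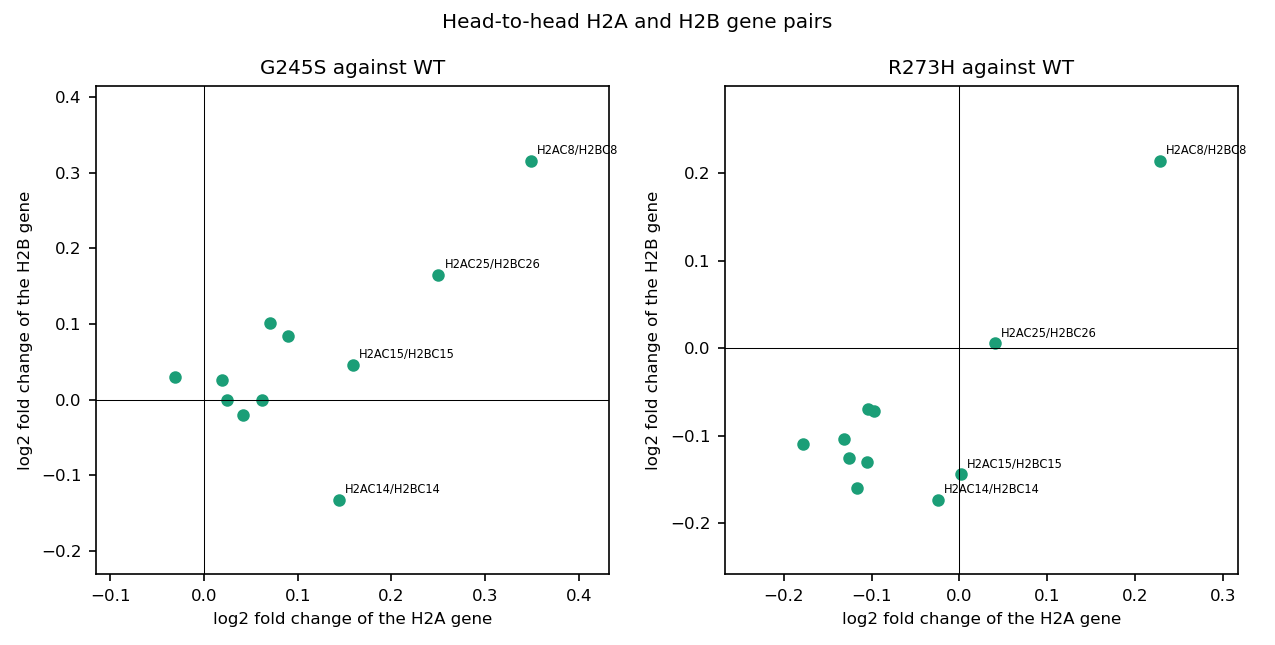
Log2 fold change of the H2A gene (x axes) and of the H2B gene (y axes) in each of 11 head-to-head pairs, in G245S against WT and R273H against WT, with 4 pairs named. The pair H2AC8 and H2BC8 lies at the upper right of both panels, and H2AC14 and H2BC14 lie below the other pairs in G245S against WT.

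The H2B sum was at 3786, 3627 and 3768 CPM in WT, 3986, 3842 and 3738 CPM in G245S and 3445, 3449 and 3507 CPM in R273H. R273H lay apart from both others, with a difference of -6.98% from WT, and G245S was 11.2% above R273H. Between the mutants 12 of 17 genes were higher in G245S, and those not called were H2BC6, H2BC8, H2BC9, H2BC10 and H2BC14. In R273H against WT 9 were lower (H2BC4, H2BC5, H2BC7, H2BC11, H2BC12, H2BC13, H2BC14, H2BC15 and H2BC18), and in G245S against WT 6 were higher (H2BC5, H2BC6, H2BC8, H2BC17, H2BC21 and H2BC26).

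H2BC18 led the class with 563, 540 and 545 CPM in WT, 586, 556 and 546 CPM in G245S and 497, 495 and 497 CPM in R273H. The R273H dishes were within 2 CPM of each other and below all others (log2 fold change against WT -0.15, SE 0.0257, adjusted p = 7.28e-05). This gene shares 65.6% of its words with the pseudogene H2BP2. H2BC11 was at 504, 486 and 530 CPM in WT, 530, 514 and 509 CPM in G245S and 461, 468 and 480 CPM in R273H, and fell by 0.11 in R273H against WT (SE 0.0275, adjusted p = 0.00329). H2BC5, at 451 ± 21 CPM in WT, 478 ± 16.2 in G245S and 424 ± 5.03 in R273H, was called in all 3 contrasts (log2 fold changes 0.08, -0.09 and 0.17, adjusted p of 0.0388, 0.0227 and 0.00155). Of 17 alternatives, 5 ended its call in G245S against WT and 6 that in R273H against WT (adjusted p up to 0.288 and 0.665). The call between the mutants was lost under 1 of them (adjusted p = 0.068). H2BC3 had the largest called value between the mutants, 0.30 (SE 0.0713, adjusted p = 0.0189), at 17.5 ± 0.327 CPM in G245S and 14.2 ± 0.707 in R273H. The call of H2BC3 was lost without G245S dish 1, G245S dish 2, R273H dish 2 or R273H dish 3 (adjusted p up to 0.0895).

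Summed H3 footprints were at 3278, 3256 and 3398 CPM in WT, 3531, 3449 and 3363 CPM in G245S and 3062, 3075 and 3221 CPM in R273H. G245S was 10.5% above R273H and R273H differed from WT by -5.78%, both without overlap of dishes, although WT dish 2 and R273H dish 3 were only 35.1 CPM apart. Between the mutants 8 of 12 H3 genes were higher in G245S, and H3C6, H3C7, H3C8 and H3C11 were not called. In R273H 5 were lower than in WT (H3C1, H3C2, H3C3, H3C14 and H3C15) and H3C7 was higher.

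H3C2 was at 612, 614 and 666 CPM in WT, 653, 625 and 620 CPM in G245S and 550, 550 and 594 CPM in R273H, and H3C15, with the same coding sequence as H3C14, at 552, 534 and 574 CPM, 586, 563 and 553 CPM and 502, 492 and 533 CPM. For both genes WT and G245S overlapped, and R273H was lower than WT (log2 fold changes -0.16 and -0.12, adjusted p of 0.00372 and 0.00465). H3C10 had 544, 557 and 553 CPM in WT, 600, 593 and 567 CPM in G245S and 525, 540 and 542 CPM in R273H. It was called higher in G245S than in WT (log2 fold change 0.09, SE 0.0246, adjusted p = 0.00762) and than in R273H (0.13, adjusted p = 0.00249). H3C12, whose coding words are all unique, was at 374 ± 8.95 CPM in WT, 403 ± 7.66 in G245S and 372 ± 8.0 in R273H (log2 fold change of G245S against WT 0.10, SE 0.0259, adjusted p = 0.00333). Its annotated gene (chr6:27890315-27893106) overlaps H2AC17, 87.1% of whose words also lie in H3C12. Counts for H3C12 and H2AC17 thus depend on how that overlap was resolved.

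Another 2 H3 genes, 22.7 kb apart on chromosome 6, had opposite signs against WT. H3C7 was at 119, 121 and 122 CPM in WT, 139, 137 and 133 CPM in G245S and 128, 130 and 129 CPM in R273H, above WT in every mutant dish (log2 fold changes 0.17 and 0.09, adjusted p of 0.000103 and 0.0228). Its G245S call held under every alternative tried. That of R273H was lost without WT dish 1, WT dish 2, R273H dish 2 or R273H dish 3 (adjusted p up to 0.0889). H3C6 was at 27.3, 30.2 and 26.7 CPM in WT, 22.8, 24.3 and 25.8 CPM in G245S and 24.9, 25 and 25.8 CPM in R273H, below WT in every mutant dish, and was called lower in G245S (log2 fold change -0.21, SE 0.0627, adjusted p = 0.0159). This call was lost without WT dish 2 or G245S dish 1, with DESeq2 and when the length and GC trend was removed (adjusted p of 0.127, 0.0986, 0.0538 and 0.0654). The hairpin of H3C6 differs in the loop from that of the other H3 genes, which is given as a description only.

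Summed H4 footprints were at 4201, 4197 and 4314 CPM in WT, 4456, 4394 and 4230 CPM in G245S and 3922, 3990 and 4111 CPM in R273H. This class had the smallest percentage difference between the mutants, 8.79%, and R273H differed from WT by -5.41%. Of 15 H4 genes 11 were higher in G245S than in R273H, and H4C1, H4C6, H4C7 and H4C13 were not called. In R273H against WT 9 were lower (H4C1, H4C2, H4C3, H4C5, H4C8, H4C9, H4C11, H4C12 and H4C16) and H4C7 was higher, and in G245S against WT H4C4, H4C14 and H4C15 were higher and H4C16 lower.

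H4C14 was at 902, 887 and 914 CPM in WT, 977, 979 and 923 CPM in G245S and 866, 891 and 909 CPM in R273H, and H4C15, with an identical coding region, at 692, 678 and 698 CPM, 746, 743 and 701 CPM and 663, 684 and 691 CPM. Both were higher in G245S than in WT (log2 fold changes 0.09 and 0.08, adjusted p of 0.00818 and 0.0175) and than in R273H (0.11 and 0.10, adjusted p of 0.0124 and 0.0229), and WT and R273H dishes overlapped. Of 17 alternatives, 2 and 3 ended their calls against WT (adjusted p up to 0.0671 and 0.101). The calls against R273H were lost under 5 alternatives for each gene (adjusted p up to 0.269 and 0.388). H4C8, whose words are all unique, was at 416, 420 and 423 CPM in WT, 440, 430 and 415 CPM in G245S and 389, 388 and 396 CPM in R273H, with R273H below both other groups (log2 fold change against WT -0.10, SE 0.0248, adjusted p = 0.00248).

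H4C16 is the only member on chromosome 12 with the stem-loop, and it was the only H4 gene called lower in G245S than in WT. It was at 208, 202 and 208 CPM in WT, 198, 191 and 187 CPM in G245S and 173, 173 and 173 CPM in R273H. The 3 groups did not overlap, and both mutants were lower than WT, by 0.10 in G245S (SE 0.0282, adjusted p = 0.0080) and 0.25 in R273H on the log2 scale (SE 0.0280, adjusted p = 5.79e-08). The R273H call held under every alternative tried. That of G245S was lost without G245S dish 3 and when the length and GC trend was removed (adjusted p of 0.0565 and 0.331). Of the words of H4C16, 97.9% are unique. H4C9 also fell in R273H against WT (log2 fold change -0.25, SE 0.0522, adjusted p = 0.000648), at 46.2 ± 2.80 CPM in WT, 46.9 ± 1.17 in G245S and 39.0 ± 2.45 in R273H. H4C7, the H4 gene with another protein sequence, was called higher in R273H than in WT (log2 fold change 1.13, SE 0.317, adjusted p = 0.00786) on 7.71 to 35.4 counts per dish, a low level.

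The larger genomic clusters had similar percentage differences between the mutants. The 34 genes between 25723397 and 26285638 on chromosome 6 summed to 7133 ± 179 CPM in G245S and 6440 ± 182 in R273H, a difference of 10.8%. It was 10.7% for the 21 genes between 27125897 and 27893891 on the same chromosome and 10.7% for the 11 genes between 149782689 and 149887965 on chromosome 1. The pair H2AC25 and H2BC26 summed to 434 ± 6.04 CPM in WT, 501 ± 17.0 in G245S and 441 ± 3.23 in R273H, so G245S was 15.5% above WT and R273H overlapped WT. Grouped by hairpin form, the median log2 fold change between the mutants was 0.16 for the 37 tested genes with the form of H2AC8, 0.14 for the 9 with that of H2BC11, 0.13 for the 10 with that of H4C8 and 0.12 for the 4 with that of H4C14.

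The calls differed in how well they held. Of the 49 members higher in G245S than in R273H, 27 kept their call when each dish was left out in turn and under other normalizations, filters and tools, and 19 also when the length and GC trend was removed, among them H1-3, H1-10, H2AC4, H2AC12, H2AC17, H2AC18, H2AC19, H2AC25, H2BC15, H2BC17, H2BC18, H2BC21, H2BC26, H3C1, H4C2, H4C8, H4C9 and H4C16. Without G245S dish 1 the contrast called 28 members, and without G245S dish 2, R273H dish 1 or R273H dish 2 it called 31, 31 and 32, while the number of all genes called fell from 513 to 162, 204, 222 and 233. Of the 42 members called in R273H against WT, 29 kept their call under all alternatives but the trend, and 7 under all of them, among them H1-2, H1-5, H1-10 and H4C16 as lower, and H2AC8 and H4C7 as higher. Of the 25 members called in G245S against WT, 11 kept their call under all alternatives: H1-3, H2AC4, H2AC8, H2AC16, H2AC25, H2BC6, H2BC8, H2BC26, H3C7, H3C12 and H3C13, all higher. The calls kept under the fewest alternatives were H4C12 as lower in R273H than in WT and H4C4 as higher in G245S than in R273H, each under 8 of 17. Those of H2AC18 as lower in R273H than in WT, H2AC17 as higher in G245S than in WT and H3C3 as higher in G245S than in R273H were kept under 9. Of the 68 tested members, the contrast of G245S with WT called 13 without WT dish 2 and 14 without G245S dish 1. It then called 19.2% and 19.9% of all genes tested, so both counts were near the share of all genes.

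The factors that make, process and degrade histone mRNA were read against all genes tested, of which 12.6% were called higher and 12.1% lower in G245S than in WT, 14.2% and 14.6% in R273H than in WT, and 1.86% and 0.732% in G245S than in R273H. Of 26 genes for histone gene transcription and 3′ end processing, 5 were higher and 2 lower in G245S than in WT, 3 higher and 3 lower in R273H than in WT, and 1 was higher in G245S than in R273H (SNRPB, a core protein of spliceosomal snRNPs, named after its value was seen), with list medians of 0.01, 0.01 and 0.01. SLBP, which binds the stem-loop, was at 162, 158 and 155 CPM in WT, 165, 162 and 164 CPM in G245S and 163, 156 and 162 CPM in R273H and was not called. NPAT and HINFP, transcription factors of the histone loci, CASP8AP2, a protein of the histone locus body, and LSM10, LSM11 and ZNF473, proteins of the U7 processing machinery, were not called in any contrast. Of 19 decay factors, the G245S comparison with WT had 4 higher and 3 lower, that of R273H 4 higher and 4 lower, and none was called between the mutants, where 5 of the 19 had an unadjusted p under 0.05, DESeq2 called 0 and the list median was -0.03. Among them UPF1, a helicase needed for histone mRNA decay, was at 262, 249 and 241 CPM in WT, 242, 240 and 235 CPM in G245S and 228, 228 and 222 CPM in R273H and fell by 0.15 in R273H against WT (SE 0.0290, adjusted p = 0.000215), and ERI1, the exonuclease that trims the stem-loop, was not called.

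Of 26 histone chaperones 8 were higher and 5 lower than WT in each mutant, and 0 were called between the mutants by either tool, with 3 at an unadjusted p under 0.05 and a list median of 0.01. NASP, which holds H3 and H4 in reserve, was at 833 ± 8.76 CPM in WT, 827 ± 25.4 in G245S and 795 ± 20.5 in R273H, and was called lower in R273H than in WT (log2 fold change -0.07, SE 0.0246, adjusted p = 0.0398), but this call was lost under 10 of 17 alternatives (adjusted p up to 0.220). ASF1B, a chaperone of H3 and H4 linked to cell division, was at 68.7 ± 2.76 CPM in WT, 57.8 ± 2.31 in G245S and 55.0 ± 1.40 in R273H and fell in both mutants (log2 fold changes -0.25 and -0.32, adjusted p of 5.88e-05 and 1.01e-06), whereas ASF1A, CHAF1A and CHAF1B were not called.

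The histones that are made outside replication gave a further comparison. Of 12 tested genes of this list, which also holds the member H1-10, 8 were lower in R273H than in WT and 0 higher (median -0.12), 2 were lower in G245S (median -0.04), and 3 were higher in G245S than in R273H, H1-10 and H2AX among them. H2AX, the variant that is phosphorylated at DNA breaks, carries the stem-loop, and it was at 194, 191 and 188 CPM in WT, 198, 197 and 186 CPM in G245S and 164, 165 and 167 CPM in R273H (log2 fold change between the mutants 0.23, SE 0.0290, adjusted p = 4.35e-05, and -0.21 in R273H against WT, adjusted p = 2.17e-06). H3-3A and H3-3B, which encode the replacement histone H3.3, were at 977 ± 5.63 and 384 ± 7.99 CPM in G245S and 956 ± 23.0 and 376 ± 1.17 CPM in R273H and were not called between the mutants, nor were H2AZ1, H2AZ2, MACROH2A1 or the centromeric CENPA. H3-3A, H3-3B and H2AZ1 were called lower in R273H than in WT, by 0.09, 0.07 and 0.08 on the log2 scale (adjusted p of 0.00441, 0.0450 and 0.0129). Of 17 alternatives, 2 ended the call of H3-3A, 13 that of H3-3B and 5 that of H2AZ1. H2AJ, an H2A variant, was lower in both mutants (log2 fold changes -0.25 and -0.47, adjusted p of 0.0132 and 1.63e-05).

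S phase genes include replication enzymes and their regulators. Of 38 such genes, 19 were higher and 5 lower in G245S than in WT (median 0.10), beside 12.6% and 12.1% of all genes. Between R273H and WT 18 were higher in R273H and 5 lower (median 0.07), beside 14.2% and 14.6% of all genes, and 3 were higher and 0 lower in G245S than in R273H (the helicase subunits MCM2 and MCM5 and the DNA ligase LIG1, named after their values were seen; median 0.02). Their summed level was 6872 to 6918 CPM in WT, 7380 to 7444 in G245S and 7199 to 7248 in R273H. Whether the share of cells in S phase had a part in the histone differences was not tested.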

How the data were processed

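Ribosome footprints were sequenced from HEK293T cells with a WT, G245S or R273H construct of p53 (3 dishes each, n = 9 libraries). Per the study's methods and the submitters' processing notes, the authors trimmed reads (Trim Galore, cutadapt), removed rRNA (SortMeRNA), used UMI-tools where applicable and aligned to GRCh38 with STAR. The deposited table holds expected counts (estimated counts that need not be whole), not scaled for depth. The counting tool, annotation release, strand and multi-mapping settings are not given in the sources used here.

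Expected counts were rounded and fitted jointly over the 9 libraries by the quasi-likelihood method of edgeR 4.0.16 (R 4.3.3), with TMM factors, the default filterByExpr filter, robust dispersions and no term besides group. Two-sided p-values were adjusted by Benjamini-Hochberg over 19820 genes (threshold 0.05). CPM were scaled by TMM library sizes. Class sums carry no p-value, because their genes share reads. DESeq2 1.42.0 was an alternative, as were other normalizations and filters, fits of 6 libraries, each dish left out, a dish-number block and an offset for a per-library loess trend (span 0.5) in coding length and GC content. Annotation, coding sequences and hairpins came from GENCODE v44 and the GRCh38 genome, and 62666 of 63241 identifiers matched. Word sharing used 30-base words. SE and adjusted p-values measure the spread between dishes of 1 pool, which may be technical, and with no spike-in every value is relative to the rest of its library.

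The members and lists were chosen with earlier results of these data known. The genes named are members called in any contrast, the 3 most abundant of each class, chosen members of the lists of histone mRNA factors, decay factors, chaperones and variants, and CDKN1A and MDM2. Dish numbers were not taken to pair the samples, as by the rule used not every same-numbered pair correlated above 0.1. Deviations of same-numbered dishes correlated at 0.04 to 0.23 over 12656 genes, and those of differently numbered dishes of other groups at -0.18 to 0.06. In 17 of 18 comparisons a dish correlated highest with its own number, so dishes may still be linked by number, which the main fit leaves out. Some genes are not reported here, and the figures of single genes leave them out.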

Additional observations from a re-analysis of the deposited data

Results flagged for a closer look

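The effects of the 2 mutants against WT differed by the direct test for 49 histone genes, all higher in G245S than in R273H (edgeR's quasi-likelihood test with Benjamini-Hochberg adjustment). Among the linker histones with values above, the log2 fold change of G245S against R273H was 0.17 for H1-2, 0.17 for H1-4, 0.18 for H1-10 and 0.21 for H1-3. For H2A genes it was 0.17 for H2AC18, 0.18 for H2AC19, 0.13 for H2AC6, 0.19 for H2AC12, 0.21 for H2AC25 and 0.16 for H2AC16. For H2B genes it was 0.18 for H2BC18, 0.14 for H2BC11, 0.17 for H2BC5 and 0.30 for H2BC3. For H3 genes it was 0.16 for H3C2, 0.13 for H3C10, 0.16 for H3C15, 0.16 for H3C14, 0.11 for H3C12 and 0.21 for H3C3. For H4 genes it was 0.11 for H4C14, 0.10 for H4C15, 0.13 for H4C8, 0.15 for H4C16 and 0.27 for H4C9. The variant H2AX, which is no member but carries the stem-loop, had 0.23. Groups of 3 dishes are too small for a test of single outlying dishes.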

How the results depend on the processing

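Removal of the length and GC trend gave 39 members called in G245S against WT, 21 in R273H against WT and 20 between the mutants. Of all genes tested, it called 27.2%, 29.9% and 2.75%. The all-histone log2 ratios were 0.0995, 0.0132 and 0.0863, of which the second reversed. In R273H against WT the removal also reversed the sums of H2A (0.0433), H2B (0.0110), H3 (0.0340) and H4 (0.0457) and the log2 fold changes of H2AC18 (0.0446), H2AC19 (0.0434), H2AC6 (0.0173), H2BC11 (0.00029), H2BC5 (0.0219), H3C15 (0.00815), H3C14 (0.00835), H4C8 (0.00529) and H3-3B (0.0436). The H1 sum in G245S against WT, which lay within the spread of dishes, reversed to 0.00283 under this setting and lay between -0.0422 and 0.00322 with each dish left out. Leaving out each dish gave 13 to 28 members called in G245S against WT, 33 to 44 in R273H against WT and 28 to 50 between the mutants, with all-histone log2 ratios of 0.03 to 0.07, -0.12 to -0.09 and 0.13 to 0.17. Where these numbers of members were lowest, 19.2%, 22.7% and 0.798% of all genes tested were called. Other normalizations, filters, tools and fits of 6 libraries kept each number of called members within 1.5 times the value given, and the other normalizations, tried on the sums too, kept each all-histone ratio within the spread of dishes. With the dish number as a block 29, 47 and 49 members were called, among them 25, 42 and 45 of those called without it. H1-2, H1-4, H2BC12 and H3C2 lost their call between the mutants. The number of all genes called rose from 4900 to 5779, from 5707 to 6547 and from 513 to 1262 in the same order. Between the mutants the number of members called thus stayed at 49 while more genes were called elsewhere. As a hint from the data, 17 of 18 comparisons of a dish with another group were highest for its own number. Of 1307 alternative values for the 77 fold changes given, 1160 kept direction and call, 138 lost the call and 9 reversed. The cause of these changes was not tested. At these depths 5 members had too few counts to be tested.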
